A study of Mus musculus with 2 samples.

Results

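The genes described here build and equip the lysosome: the subunits of the vacuolar proton pump (V-ATPase), lysosomal hydrolases, luminal cofactors and carriers, membrane proteins and the transcription factor Tfeb. Every symbol of the gene tables that starts with Atp6v was taken (22 genes), together with 19 named lysosomal genes, which gave 41 of the 27998 genes in the files. The rule used no measured level, though the members were chosen with earlier results of these data known. The 22 V-ATPase genes divide into 13 of the cytosolic V1 domain and 9 of the membrane-embedded V0 domain. The other 19 comprise 9 hydrolases (Hexa, Gusb, Neu1, Man2b1, Glb1, Tpp1, Ppt1, Lipa and Lgmn), 3 luminal cofactors or carriers (Psap, Grn and Npc2), 6 membrane proteins (Lamp1, Lamp2, Cd68, Laptm5, Npc1 and Mcoln1) and Tfeb.

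The study profiled single cells from the retina of male CB6F1 mice, 8 months old, carrying a Cx3cr1-YFP reporter, a fluorescent mark of cells that express Cx3cr1, which encodes a chemokine receptor of microglia and other myeloid cells. For each group, retinas of 5 to 8 mice were combined, living YFP-positive cells were sorted from them, and 1 library was made with the 10x Genomics 3' end protocol. The control mice had no light damage. The light-damaged mice were kept in the dark overnight, had their pupils dilated with atropine sulfate and phenylephrine hydrochloride, were exposed to LED light of 10 klux for 4 h and recovered in normal lighting for 5 days. With 1 pooled library per group, the group and the library cannot be told apart, mice cannot be told apart within a pool, and no difference has a replicate check or a test. The reporter gate limits the data to cells with Cx3cr1 promoter use, and shares of cells are shares of what was sorted.

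Lysosomes are acidic organelles in which hydrolases break down material taken up by phagocytosis, endocytosis or autophagy. The V-ATPase acidifies them: its V1 domain splits ATP in the cytosol, and its V0 domain carries protons through the membrane. Several subunits have paralogous isoforms, whose use differs between organelles and cell types. Tfeb drives many lysosomal genes through short DNA elements around the letters CACGTG. In the retina, microglia clear synaptic and photoreceptor debris, and perivascular macrophages sit along vessels; both depend on lysosomes for digestion.

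Levels are unique molecular identifiers (UMIs) summed over the cells of a class in 1 library and divided by all UMIs of those cells, as CPM (the usual scaling of counts). Each molecule is counted at its 3' end, so levels are not scaled to gene length. Microglia were cells with at least 20 UMIs per 10000 from P2ry12, Tmem119, Siglech, Gpr34 and P2ry13 together. Perivascular macrophages had at least 10 per 10000 from Mrc1, F13a1, Cd163, Lyve1 and Cbr2, and the class called other macrophages had under 10 of both. In the control library 3374, 53 and 244 cells fell into these classes, and in the light-damaged library 4385, 84 and 1171. A further 144 control and 785 light-damaged cells lay between the limits of the microglia sum, and 5 and 2 cells met both limits; these entered no class. Classes cut from a sum of markers are ranges of that sum and not distinct cell types.

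The 2 libraries differed in depth, with a median of 4846 UMIs per barcode in the control and 7351 in the light-damaged library, and 42 kept cells carried a barcode present in both. Markers that the limits did not use followed the names of the first 2 classes. The sum of Sall1, Olfml3, Slc2a5, Crybb1 and Cx3cr1 was 2696 and 2786 CPM in control and light-damaged microglia and 413 to 699 CPM in the other classes. The sum of Pf4, Stab1, Cd209f and Folr2 was 2448 and 1495 CPM in perivascular macrophages, against 77.0 and 90.2 CPM in microglia and 731 and 164 CPM in other macrophages. The name of the third class was only partly borne out. In the control library it held 14436 CPM of 6 rod photoreceptor transcripts, against 305 CPM in the light-damaged library, and 56 of its 244 cells (15 of 1171 light-damaged cells) had at least 20 rod UMIs per 10000. Marker sums of other retinal cells were also higher in the control class: 1447 against 267 CPM for Müller glia, 468 against 36.6 CPM for bipolar cells, 225 against 22.2 CPM for pericytes, 201 against 21.6 CPM for endothelium and 127 against 0 CPM for erythrocytes. The pan-myeloid sum of Tyrobp, Fcer1g, Aif1, Csf1r and Ptprc was 4590 CPM in the control and 8052 CPM in the light-damaged class. The sum of 7 markers of monocytes or recruited macrophages was 431 and 926 CPM, of which Ms4a7 alone held 367 and 772.5 CPM. The same sum was 542 and 881 CPM in perivascular macrophages, so it did not set the third class apart from them. Values of the third class are therefore also given for its myeloid-rich cells alone, 154 control and 1117 light-damaged cells, a subset chosen after the data had been seen. It took cells with at least 20 myeloid and under 20 rod UMIs per 10000, and its rod sum was 439.7 and 63.3 CPM. In these cells the pericyte and endothelial sums were at most 7.19 CPM and the Müller glia sum was 392 and 207 CPM, whereas the sum of Pf4, Stab1, Cd209f and Folr2 was 948 CPM in the control and 169 CPM in the light-damaged cells. The part of the perivascular markers in the values of this class was not tested.

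Of the 41 genes, 33 reached 20 CPM in at least 1 of the 6 sums of library and class, 14 V-ATPase genes and all 19 others. In what follows each pair of levels gives the control library first. The V-ATPase sum was 2188 and 2217 CPM in microglia, 2359 and 2763 in perivascular macrophages and 2454 and 2942 in other macrophages. The hydrolase sum was 7171 and 7121 CPM in microglia, 3359 and 4383 in perivascular macrophages and 2486 and 4964 in other macrophages, of which Lgmn alone held 4396 and 4094 CPM in microglia. The V-ATPase sum thus ran from 2188 to 2942 CPM and was lowest in microglia of both libraries. It varied less than the hydrolase sum, which was highest in microglia of both libraries. Psap, Grn and Npc2 together were at 6219 and 7793 CPM in microglia, 3585 and 5121 in perivascular macrophages and 3030 and 8512 in other macrophages. The 6 membrane proteins were at 3368 and 3092 CPM in microglia, 2089 and 2348 in perivascular macrophages and 1752 and 2597 in other macrophages.

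**Figure D1:**
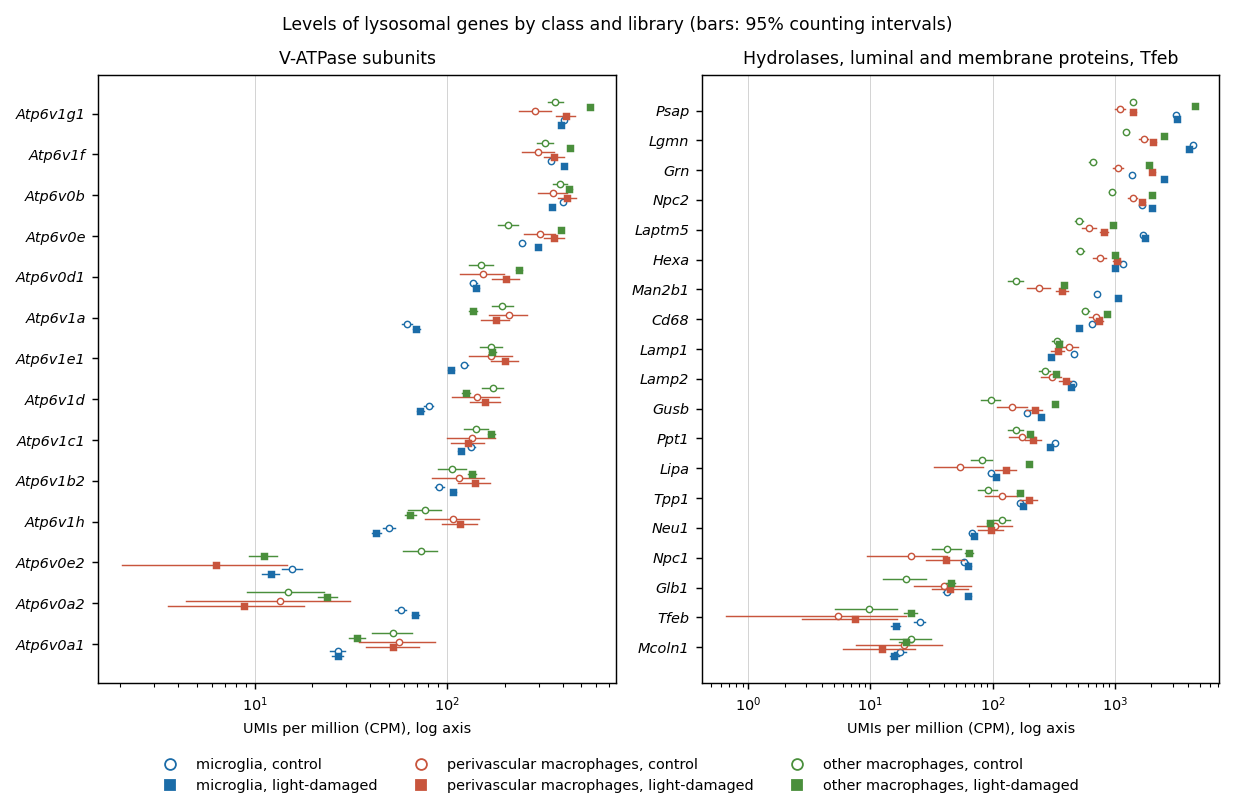
Level of each gene (rows) in CPM on a log axis, with V-ATPase subunits left and the other genes right; colour marks the class, open circles the control and filled squares the light-damaged library, and bars are 95% Poisson intervals for counting error. Only the 33 genes that reached 20 CPM in 1 or more sums are drawn; Psap and Lgmn lie between 1111 and 4582 CPM, and Atp6v1a lies lower in microglia than in either other class.

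Among the V1 subunits, Atp6v1a encodes the catalytic A subunit that splits ATP. It was at 62.1 and 69.2 CPM in microglia, 210.3 and 179.7 in perivascular macrophages and 195 and 137 in other macrophages. Atp6v1b2, the B subunit that completes the catalytic ring, was at 91.4 and 108 CPM in microglia, 116 and 139.5 in perivascular macrophages and 107 and 136 in other macrophages. Atp6v1a was thus low in microglia of both libraries, and its ring partner differed less between classes. Atp6v1c1, whose C subunit joins the V1 and V0 domains, was at 134 and 118 CPM in microglia, 135 and 128 in perivascular macrophages and 142 and 170.2 in other macrophages. Atp6v1d, the D subunit of the central rotor, was at 80.7 and 72.9 CPM in microglia, 143 and 158 in perivascular macrophages and 173 and 126 in other macrophages. Atp6v1e1, the E subunit of the peripheral stalks, was at 123 and 105 CPM in microglia, 169.8 and 199.8 in perivascular macrophages and 169 and 173 in other macrophages. Atp6v1d and Atp6v1e1 were both lowest in the 2 microglia sums. Atp6v1f, the F subunit of the rotor, was at 347 and 405 CPM in microglia, 299 and 361 in perivascular macrophages and 326 and 436 in other macrophages. Atp6v1g1, the G subunit of the peripheral stalks, was at 409 and 392 CPM in microglia, 288 and 415 in perivascular macrophages and 367 and 558 in other macrophages. Atp6v1h, the regulatory H subunit, was at 49.98 and 42.9 CPM in microglia, 108 and 117 in perivascular macrophages and 76.8 and 64.5 in other macrophages. Levels of Atp6v1f stayed between 299 and 437 CPM, a narrower relative range than that of Atp6v1a, which ran from 62.1 to 210.3 CPM.

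In the V0 domain, the a subunits form the path of the protons and steer the pump to its membrane. Atp6v0a1 was at 27.1 and 27.1 CPM in microglia, 56.6 and 52.8 in perivascular macrophages and 52.2 and 34.0 in other macrophages. Atp6v0a2, an isoform known for its role in the Golgi apparatus and in endosomes, was at 57.6 and 68.7 CPM in microglia, 13.5 and 8.79 in perivascular macrophages and 14.9 and 23.9 in other macrophages. The isoforms ran in opposite directions between classes in both libraries, with Atp6v0a2 highest and Atp6v0a1 lowest in microglia. Atp6v0b, a proteolipid of the rotor ring, was at 401 and 351 CPM in microglia, 356 and 423 in perivascular macrophages and 389 and 434 in other macrophages. Atp6v0d1, the d subunit that couples the rotor to the ring, was at 137 and 142 CPM in microglia, 154 and 202 in perivascular macrophages and 151 and 237 in other macrophages. Atp6v0e, a small membrane subunit, was at 246 and 298 CPM in microglia, 305 and 362 in perivascular macrophages and 209 and 392 in other macrophages. Atp6v0e2, its paralogue, was at 15.7 and 12.2 CPM in microglia, 0 and 6.28 in perivascular macrophages and 73.1 and 11.1 in other macrophages. The level of Atp6v0e2 in control other macrophages stood apart from its 5 other values, and in the myeloid-rich cells of that class it was 7 of 261 UMIs of the e subunits. Atp6v0c, the main proteolipid of the ring, had only 127 UMIs over all barcodes and was at 0.746 to 3.77 CPM. Of the 50-base stretches in the last 500 bases of its transcripts, 36.6% also occurred in transcripts of Atp6v0c-ps2 or Atp6v0c-ps1, so reads of this gene may not have been assigned to it. The same share was 18.5% for Atp6v1f and 3.12% for Grn, and 0% for each of the other 38 genes.

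Isoform use was read as the share of each paralogue among the UMIs of its subunit, with exact Clopper-Pearson 95% intervals. The a subunits include a3, encoded by Tcirg1, which is not among the 41 genes and was added to the a-subunit total after its level had been seen. Atp6v0a2 (GRCm38 chr5:124628576-124724455) made up 30.8% (29.2% to 32.5%) of a-subunit UMIs in control microglia and 34.9% (33.8% to 36.1%) in light-damaged microglia. In perivascular macrophages its share was 11.1% (3.71% to 24.1%), 5 of 45 UMIs, and 6.60% (2.70% to 13.1%), 7 of 106 UMIs. In other macrophages it was 20 of 154 UMIs (8.12% to 19.3%) and 13.3% (11.9% to 14.7%), and in their myeloid-rich cells 9.91% (5.05% to 17.0%) and 292 of 2085 UMIs (12.5% to 15.6%). The microglial intervals lay above those of both other classes in each library, and the intervals of the 2 libraries overlapped in other macrophages. Atp6v0a1 made up 14.5% (13.3% to 15.8%) and 13.8% (12.9% to 14.7%) in microglia and 45.5% (37.4% to 53.7%) and 18.9% (17.3% to 20.6%) in other macrophages. Tcirg1 held the largest share in both microglia sums, 54.7% (52.9% to 56.5%) and 51.3% (50.04% to 52.5%). Atp6v0d2, a d-subunit isoform known from osteoclasts and macrophages, had 59 of 3081 d-subunit UMIs in light-damaged other macrophages, 1.92% (1.46% to 2.46%). It had 0 of 202 in the control class, 0 of 2270 in control microglia and 2 of 4624 in light-damaged microglia. In perivascular macrophages it had 1 of 58 and 2 of 163 UMIs, shares of 1.72% (0.0436% to 9.24%) and 1.23% (0.149% to 4.36%), whose intervals overlap that of light-damaged other macrophages. Atp6v0d2 was at 4.63 CPM (3.52 to 5.97) in light-damaged and 0 CPM (0 to 2.75) in control other macrophages, under the minimum level used for calls. Against 3 counts in the control class (2.24 CPM) this would be 2.07-fold higher, which is not a lower bound. Its share in the control class had an interval from 0% to 1.81%, which overlaps that of the light-damaged class. All 59 of its UMIs in light-damaged other macrophages came from the myeloid-rich cells. For the B, C, E and G subunits, a single isoform held nearly or fully all UMIs. Atp6v1b1, Atp6v1c2, Atp6v1g3 and Atp6v0a4 had no UMI in any class, where 3 counts would be 0.0922 to 8.09 CPM. Atp6v1e2 had 1 UMI in light-damaged microglia, and Atp6v1g2 was at 0 to 8.21 CPM.

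**Figure D2:**
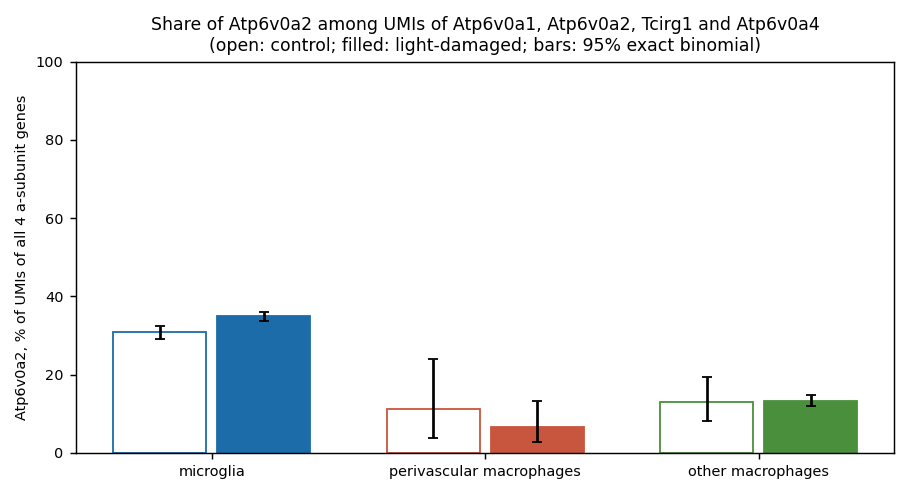
Share of Atp6v0a2 among the UMIs of Atp6v0a1, Atp6v0a2, Tcirg1 and Atp6v0a4 together, in percent, by class; open bars are the control and filled bars the light-damaged library, and error bars are exact binomial 95% intervals for counting error. Both microglia bars, at 30.8% and 34.9%, stand above the other 4, which run from 6.60% to 13.3%.

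Among the hydrolases, Hexa encodes the alpha chain of beta-hexosaminidase, which trims gangliosides. It was at 1169 and 1000 CPM in microglia, 755 and 1043 in perivascular macrophages and 524 and 1008 in other macrophages. Gusb, beta-glucuronidase, was at 190.1 and 250.3 CPM in microglia, 146 and 221 in perivascular macrophages and 97.0 and 326 in other macrophages. Neu1, the lysosomal sialidase, was at 68.2 and 70.8 CPM in microglia, 105 and 96.8 in perivascular macrophages and 119 and 95.3 in other macrophages. Neu1, alone among the 9 hydrolases, had its 2 lowest levels in microglia. Man2b1, lysosomal alpha-mannosidase, was at 716 and 1059 CPM in microglia, 239.9 and 373 in perivascular macrophages and 154 and 388 in other macrophages. Glb1, the lysosomal beta-galactosidase, was at 42.2 and 63.4 CPM in microglia, 40.4 and 45.2 in perivascular macrophages and 19.4 and 45.5 in other macrophages. Man2b1 and Glb1 were both highest in light-damaged microglia. Tpp1, a tripeptidyl peptidase, was at 168 and 178 CPM in microglia, 119 and 197 in perivascular macrophages and 91.0 and 167 in other macrophages. Ppt1, which removes palmitate from proteins, was at 325 and 298 CPM in microglia, 175 and 215 in perivascular macrophages and 155 and 202 in other macrophages. Lipa, the acid lipase that frees cholesterol from its esters, was at 96.3 and 107 CPM in microglia, 53.9 and 128 in perivascular macrophages and 81.3 and 200.3 in other macrophages. Lipa reached its highest level in light-damaged other macrophages. Lgmn, the asparaginyl endopeptidase legumain, was at 4396 and 4094 CPM in microglia, 1725 and 2063 in perivascular macrophages and 1244 and 2532 in other macrophages. Its level in microglia of either library was above that of every other sum.

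Psap, the precursor of the saposins that present lipids to hydrolases, was at 3180 and 3240 CPM in microglia, 1111 and 1407 in perivascular macrophages and 1413 and 4582 in other macrophages. Grn, the precursor of granulins, was at 1379 and 2549 CPM in microglia, 1067 and 2029 in perivascular macrophages and 661 and 1924 in other macrophages. Npc2, which carries cholesterol in the lumen, was at 1660 and 2005 CPM in microglia, 1407 and 1685 in perivascular macrophages and 956 and 2006 in other macrophages. Grn was higher in the light-damaged than in the control library in all 3 classes. Psap was highest in light-damaged other macrophages and stood at nearly the same level in both microglia sums. Among membrane proteins, Lamp1, an abundant glycoprotein of the lysosomal membrane, was at 464 and 303 CPM in microglia, 426 and 342 in perivascular macrophages and 336 and 349.7 in other macrophages. Lamp2, its relative, was at 459.6 and 442 CPM in microglia, 305 and 396 in perivascular macrophages and 267 and 329.8 in other macrophages. Lamp1 was lowest in light-damaged microglia and highest in control microglia, an order that Lamp2 did not share. Cd68, a glycoprotein typical of phagocytes, was at 658 and 512 CPM in microglia, 698 and 738 in perivascular macrophages and 575 and 859 in other macrophages. Laptm5, a membrane protein of lysosomes, was at 1710 and 1757 CPM in microglia, 620.0 and 819 in perivascular macrophages and 509.5 and 975 in other macrophages. Npc1, which exports cholesterol through the membrane, was at 58.9 and 63.3 CPM in microglia, 21.6 and 41.5 in perivascular macrophages and 42.5 and 64.1 in other macrophages. Laptm5 stood higher in both microglia sums than anywhere else, and Cd68 was lowest in light-damaged microglia. Mcoln1, a calcium-permeable channel, was at 17.6 and 15.7 CPM in microglia, 18.9 and 12.6 in perivascular macrophages and 21.6 and 19.5 in other macrophages, close to the minimum used for calls. Tfeb was at 25.3 and 16.2 CPM in microglia, 5.39 and 7.54 in perivascular macrophages and 9.70 and 21.3 in other macrophages, with 2 and 6 UMIs in perivascular macrophages.

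Because Tfeb binds elements around CACGTG, the sequences at the starts of these genes were searched, on both strands, for TCACGTG, which contains CACGTG. The windows ran from 250 bases before to 50 after each start in RefSeq's table for GRCm38.p6, in which 34 of the 41 genes were present. TCACGTG occurred in 8 of these 34 windows (23.5%) and in 1160 of the 27025 symbols of the table (4.29%). CACGTG alone occurred in the same 8 and in 8.09% of all symbols. A longer string that extends TCACGTG on both sides was also searched. It occurred in 0 of the 34 windows and in 100 of the 27025 symbols (0.370%). A string this rare is too seldom found for 34 windows to show whether its share differs. The genes with a match were Atp6v1a, Atp6v0b, Atp6v0d1, Atp6v0e, Glb1, Lgmn, Lamp1 and Mcoln1; windows of Grn, Psap, Man2b1 and Lipa held no match. A match describes letters and not a bound site. The 250 bases before the starts of Lamp1 and Glb1 are shown because the levels of these genes in microglia differed in opposite directions between the libraries, and shorter windows show the match in 6 other genes. Capitals mark every match in the longer and 1 match in each shorter sequence, on either strand, and all are written 5′ to 3′ on the strand of the gene.
Lamp1, chr8:13158911-13159160, plus strand: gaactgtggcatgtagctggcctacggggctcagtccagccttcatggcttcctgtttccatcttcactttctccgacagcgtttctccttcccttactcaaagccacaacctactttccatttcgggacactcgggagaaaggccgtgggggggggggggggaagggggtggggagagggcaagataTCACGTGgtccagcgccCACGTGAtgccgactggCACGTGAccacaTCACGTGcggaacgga
Glb1, chr9:114400828-114401077, plus strand: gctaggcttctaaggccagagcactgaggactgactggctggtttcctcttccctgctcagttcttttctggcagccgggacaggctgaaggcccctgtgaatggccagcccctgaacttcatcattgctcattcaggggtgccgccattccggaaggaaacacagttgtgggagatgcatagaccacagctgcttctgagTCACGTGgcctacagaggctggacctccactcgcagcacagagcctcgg
Atp6v1a, chr16:44139367-44139408, minus strand: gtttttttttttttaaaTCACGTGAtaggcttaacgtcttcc
Atp6v0b, chr4:117887342-117887383, minus strand: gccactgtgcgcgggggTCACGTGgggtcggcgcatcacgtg
Atp6v0d1, chr8:105566050-105566079, minus strand: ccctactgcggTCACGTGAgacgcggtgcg
Atp6v0e, chr17:26676387-26676416, plus strand: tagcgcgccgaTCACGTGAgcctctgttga
Lgmn, chr12:102439118-102439159, minus strand: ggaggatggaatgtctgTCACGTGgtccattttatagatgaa
Mcoln1, chr8:3500430-3500471, plus strand: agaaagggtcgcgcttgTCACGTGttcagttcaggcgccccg
Lamp1 held 4 matches within its 250 bases, and Glb1 held 1. The match of Atp6v0d1 spanned the start annotated by RefSeq, and that of Atp6v0e lay just after it. GENCODE's gene starts can differ from those of RefSeq. The windows shown for Atp6v1a, Atp6v0e and Lgmn lay inside the GENCODE genes. On the strand of each gene, these begin at chr16:44139705, chr17:26663231 and chr12:102439813.

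The first comparison set light-damaged against control microglia. Grn, Glb1, Lamp1 and Tfeb passed 1.5-fold, and the proton pump did not move past it in any measured subunit. Of the 31 genes measured there, with a mean of both levels of at least 20 CPM, 2 were more than 1.5-fold higher and 2 lower. Over all 4916 genes measured in this comparison 10.4% passed 1.5-fold (4.68% higher and 5.72% lower), so the count of 4 of 31 stood near the background. Grn (GRCm38 chr11:102430315-102437048) was at 1379 CPM (control) and 2549 CPM (light-damaged), 1.85-fold higher (1.82 to 1.88), where the interval is the exact 95% interval of the ratio of 2 Poisson counts and covers counting error only. Glb1 (chr9:114401076-114474898) was at 42.2 CPM (control) and 63.4 CPM (light-damaged), 1.50-fold higher (1.38 to 1.64). Lamp1 (chr8:13159161-13175338) was at 464 CPM (control) and 303 CPM (light-damaged), 1.53-fold lower (1.49 to 1.58). Tfeb (chr17:47737030-47792419) was at 25.3 CPM (control) and 16.2 CPM (light-damaged), 1.56-fold lower (1.37 to 1.78). Of the genes with a TCACGTG match, Lamp1 was thus lower and Glb1 higher. Atp6v1a, Atp6v0b, Atp6v0d1, Atp6v0e and Lgmn, which also held a match, stayed within 1.5-fold, and Mcoln1 was under the minimum level. A link between matches and levels was not tested. Just inside the limit lay Man2b1, 1.48-fold higher (1.45 to 1.51). Gusb was 1.32-fold higher (1.26 to 1.37) and Npc2 1.21-fold higher (1.19 to 1.23), and Cd68 was 1.28-fold lower (1.25 to 1.32). Psap was 1.02-fold higher (1.01 to 1.03), Laptm5 1.03-fold higher (1.01 to 1.04) and Lgmn 1.07-fold lower (1.06 to 1.08). All 13 measured V-ATPase subunits stayed within 1.5-fold, from Atp6v1e1, 1.18-fold lower (1.11 to 1.24), to Atp6v0e, 1.21-fold higher (1.17 to 1.25). Their median log2 ratio was 0.0022, against 0.05 for the 18 other genes measured and -0.02 for all genes.

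Within cells, Grn had a median of 12.9 UMIs per 10000 in control microglia (10th to 90th percentile 5.67 to 22.8) and 22.3 in light-damaged microglia (11.4 to 39.8). The ranges overlapped, and the light-damaged median lay close to the upper end of the control range. Lamp1 had medians of 4.08 (0 to 9.40) and 2.46 (0 to 6.10). After every cell had been thinned to 3000 UMIs, which left out 603 control microglia, the mean of Grn was 4.12 and 7.28 UMIs and that of Lamp1 1.39 and 0.849 UMIs. The direction of both differences was thus the same at equal depth. Over the same cells the V-ATPase sum had a mean of 6.49 UMIs in both libraries. Glb1 lay at the limit: it passed 1.5-fold under 7 of 10 other settings, at log2 ratios between 0.54 and 0.60. Settings that change only the level minimum or the fold limit leave a ratio as it is and are among these 7. The microglia marker sum itself was lower in light-damaged microglia, 4168 against 6572 CPM, and the part of this difference in the results was not tested.

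In perivascular macrophages, Lipa, Grn, Tpp1, Man2b1, Gusb and Npc1 were more than 1.5-fold higher after light damage, 6 of 29 genes measured, and 0 were lower. Over the 4390 genes measured 31.7% passed 1.5-fold (17.9% higher and 13.8% lower), so 6 of 29 lay under the background for both directions together and near that for higher levels. Lipa was at 53.9 CPM (control) and 128 CPM (light-damaged), 2.38-fold higher (1.46 to 4.05), on 20 and 102 UMIs. Grn was at 1067 CPM (control) and 2029 CPM (light-damaged), 1.90-fold higher (1.70 to 2.13). Tpp1 was 1.66-fold higher (1.18 to 2.38), Man2b1 1.55-fold higher (1.22 to 1.99) and Gusb 1.52-fold higher (1.11 to 2.10). Npc1 rested on 8 and 33 UMIs, and its ratio of 1.92 had an interval from 0.871 to 4.82 that includes equal levels. All 12 V-ATPase subunits measured stayed within 1.5-fold, the highest being Atp6v1g1, 1.44-fold higher (1.15 to 1.80). Lamp1 was 1.25-fold lower (1.02 to 1.52). These sums rest on 53 and 84 cells: with the cells that met both limits added, 3 genes passed 1.5-fold in place of 6, and with stricter class limits (17 and 23 cells) Man2b1 had a log2 ratio of 0.18.

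Other macrophages showed the widest differences. Of 31 genes measured, 15 were more than 1.5-fold higher in the light-damaged library and 2 lower. The background was 46.6% of 5031 genes (22.7% higher and 23.9% lower), so the count of members higher stood above that share of all genes and the count lower stood under it; this difference was not tested. Among hydrolases 7 of 9 were higher. Gusb was at 97.0 CPM (control) and 326 CPM (light-damaged), 3.36-fold higher (2.82 to 4.03). Man2b1 was 2.51-fold higher (2.19 to 2.90), Lipa 2.46-fold higher (2.03 to 3.01) and Glb1 2.35-fold higher (1.58 to 3.62). Lgmn was 2.04-fold higher (1.94 to 2.14), Hexa 1.92-fold higher (1.78 to 2.08) and Tpp1 1.83-fold higher (1.52 to 2.21). Ppt1 and Neu1, the remaining hydrolases, stayed within 1.5-fold. All 3 luminal genes were higher. Psap (GRCm38 chr10:60277627-60302597) was at 1413 CPM (control) and 4582 CPM (light-damaged), 3.24-fold higher (3.10 to 3.40). Grn was at 661 CPM (control) and 1924 CPM (light-damaged), 2.91-fold higher (2.72 to 3.12), and Npc2 was 2.10-fold higher (1.98 to 2.22). Of the membrane proteins, Laptm5 was 1.91-fold higher (1.77 to 2.07) and Npc1 1.51-fold higher (1.15 to 2.01). Cd68, 1.49-fold higher (1.39 to 1.61), lay just inside the limit, and Lamp1 was 1.04-fold higher (0.945 to 1.15). Tfeb was 2.20-fold higher (1.26 to 4.18) on 13 and 272 UMIs, under the minimum level for a call.

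The V-ATPase subunits of this class split. Atp6v0e was 1.88-fold higher (1.67 to 2.13), Atp6v0d1 1.57-fold higher (1.36 to 1.82) and Atp6v1g1 1.52-fold higher (1.39 to 1.67). Atp6v0a1 was 1.53-fold lower (1.17 to 1.98) and Atp6v0e2 6.56-fold lower (5.02 to 8.55). The other 8 measured subunits stayed within 1.5-fold. As given above, transcripts of rods, of other retinal cells and of perivascular macrophages also differed between the control and light-damaged class, and the perivascular markers did so in the myeloid-rich cells too. In the myeloid-rich cells, 13 of 29 genes measured were higher and 3 lower, against a background of 48.0% (30.5% higher and 17.5% lower). All 12 hydrolase, luminal and membrane genes named as higher above remained more than 1.5-fold higher there. Laptm5, 1.50-fold higher (1.39 to 1.63), and Hexa, 1.51-fold higher (1.39 to 1.63), were just past the limit. The median log2 ratio of all genes was 0.25 in these cells, against 0.05 in the whole class. The ratios given here for the myeloid-rich cells were not scaled to it. Psap was at 1723 CPM (control) and 4560 CPM (light-damaged) in these cells, 2.65-fold higher (2.52 to 2.78). Grn was 2.31-fold higher (2.15 to 2.48), Gusb 2.65-fold higher (2.21 to 3.20), Man2b1 2.03-fold higher (1.76 to 2.36) and Lipa 2.004-fold higher (1.63 to 2.48). The V-ATPase differences depended more on this choice. Atp6v1g1 remained higher, 1.53-fold higher (1.37 to 1.71), whereas Atp6v0e was 1.48-fold higher (1.30 to 1.69) and Atp6v0d1 1.41-fold higher (1.20 to 1.67). Atp6v1a, 1.64-fold lower (1.41 to 1.90), Atp6v1d, 1.60-fold lower (1.37 to 1.87), and Atp6v1h, 1.50-fold lower (1.19 to 1.89), were lower past the limit. Atp6v0a1 came inside it, 1.38-fold lower (0.988 to 1.89), with an interval that includes equal levels, and Atp6v0e2 turned to a log2 ratio of 0.35. Scaled to the median gene, which moved by 0.17 on the log2 scale, 12 members were higher and 4 lower in the whole class, and 33.7% of all genes past 1.5-fold were higher in place of 48.8%.

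**Figure D3:**
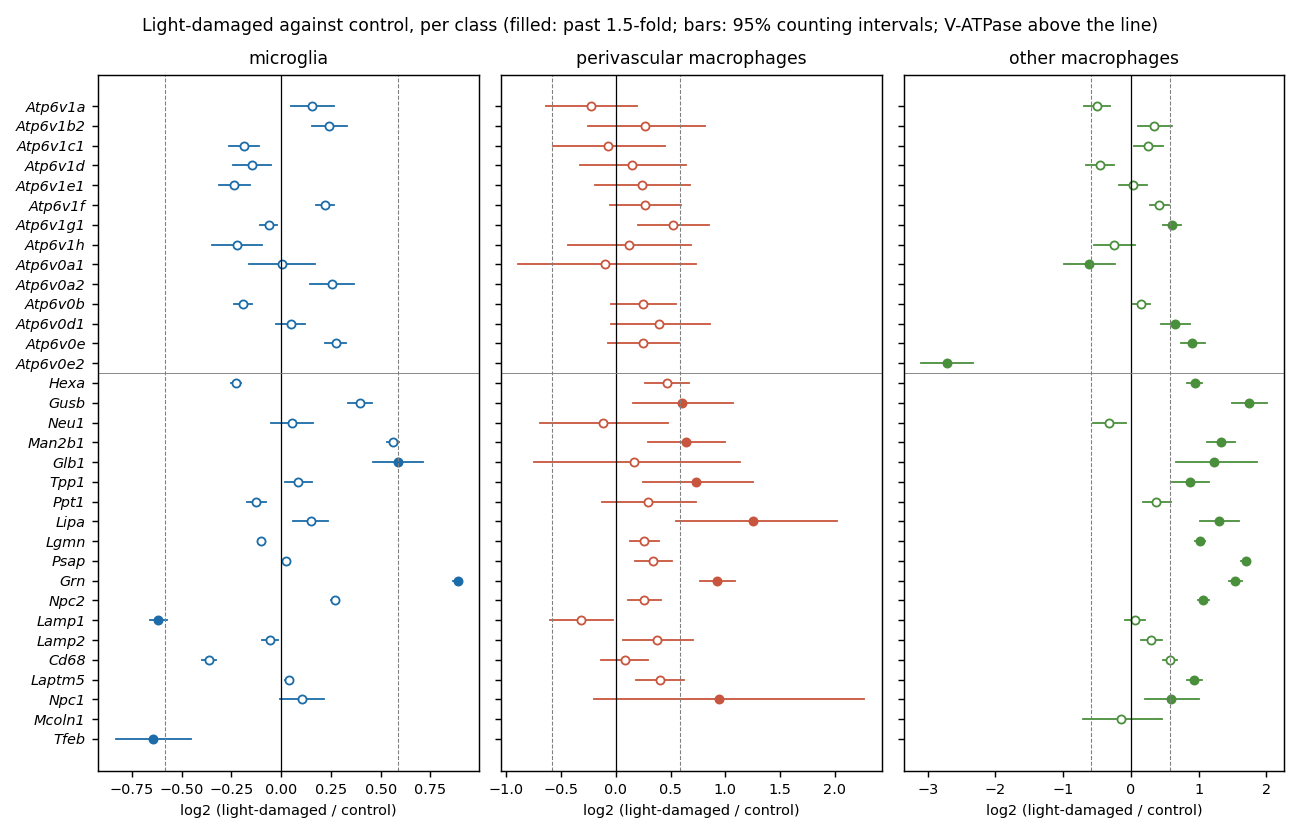
Log2 ratio of the light-damaged over the control level for each measured gene (rows) in the 3 classes (panels, each with its own axis); bars are 95% counting intervals, filled points are past 1.5-fold (dashed lines), and V-ATPase subunits stand above the grey line. In microglia the subunits lie between -0.23 and 0.27, and in other macrophages 12 of the 18 genes under the line lie past 1.5-fold to the right.

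A second set of comparisons set each class against microglia of the same library, so both sides share preparation and free RNA. Perivascular macrophages had more transcripts of several V-ATPase subunits than microglia and fewer of Psap, Lgmn, Laptm5 and Man2b1. In the control library 5 of 30 genes measured were more than 1.5-fold higher and 10 lower, against 51.3% of 4718 genes (15.6% higher and 35.7% lower). In the light-damaged library 5 of 30 were higher and 6 lower, against 43.1% of 4749 genes (14.6% higher and 28.5% lower). Neither total exceeded its background. Atp6v1a was 3.39-fold higher (2.65 to 4.27) in the control and 2.60-fold higher (2.18 to 3.08) in the light-damaged library. Atp6v1h was 2.16-fold higher (1.53 to 2.96) and 2.73-fold higher (2.19 to 3.37), Atp6v1d 1.77-fold higher (1.32 to 2.33) and 2.17-fold higher (1.80 to 2.60). Atp6v0a1 was 2.09-fold higher (1.28 to 3.24) and 1.95-fold higher (1.39 to 2.65). These 4 subunits, of both domains, were past 1.5-fold in both libraries. With stricter class limits Atp6v1d came inside the limit in the control library, at a log2 ratio of 0.22, and Atp6v0a1 in both, at 0.36 and 0.48. Atp6v0a2 was 4.27-fold lower (1.82 to 13.2) and 7.81-fold lower (3.78 to 19.4), on 5 and 7 UMIs.

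Man2b1 was 2.99-fold lower (2.42 to 3.72) in perivascular macrophages than in microglia of the control library and 2.84-fold lower (2.53 to 3.19) in the light-damaged library. Psap was 2.86-fold lower (2.60 to 3.16) and 2.30-fold lower (2.17 to 2.44), and Lgmn 2.55-fold lower (2.36 to 2.76) and 1.99-fold lower (1.89 to 2.08). Laptm5 was 2.76-fold lower (2.42 to 3.15) and 2.14-fold lower (1.99 to 2.32), and Npc1 2.73-fold lower (1.38 to 6.35) and 1.53-fold lower (1.08 to 2.22). These 5 genes were lower past the limit in both libraries. Hexa, Ppt1, Lipa and Lamp2 were lower and Neu1 higher past 1.5-fold in the control library, and Atp6v1e1 was higher, 1.91-fold higher (1.61 to 2.23), in the light-damaged library; whether the libraries differ in these genes was not tested. Scaled to the median gene, which moved by -0.23 and -0.25 on the log2 scale, 6 members were higher and 8 lower in the control library and 9 higher and 5 lower in the light-damaged library. With that scaling 46.2% and 56.3% of all genes past 1.5-fold were higher, in place of 30.3% and 33.9%.

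Other macrophages also had more Atp6v1a and less Atp6v0a2, Man2b1, Lgmn and Laptm5 than microglia in both libraries. In the control library 6 of 31 genes measured were higher and 13 lower, against 46.7% of 5178 genes (21.0% higher and 25.7% lower). In the light-damaged library 7 of 30 were higher and 4 lower, against 28.4% of 4853 genes (12.2% higher and 16.2% lower). Atp6v1a was 3.14-fold higher (2.73 to 3.60) and 1.98-fold higher (1.86 to 2.11), Atp6v1d 2.14-fold higher (1.86 to 2.47) and 1.73-fold higher (1.62 to 1.84). Atp6v1h was 1.54-fold higher (1.24 to 1.89) and 1.51-fold higher (1.38 to 1.64), just past the limit in both; in the myeloid-rich cells it was 1.75-fold higher (1.38 to 2.19) and 1.35-fold higher (1.24 to 1.48), inside the limit in the light-damaged library. Man2b1 was 4.64-fold lower (4.04 to 5.35) and 2.73-fold lower (2.65 to 2.81). In the same order, Lgmn was 3.53-fold lower (3.37 to 3.71) and 1.62-fold lower (1.60 to 1.64), and Laptm5 3.36-fold lower (3.11 to 3.63) and 1.80-fold lower (1.77 to 1.84). Atp6v0a2 was 3.86-fold lower (2.49 to 6.35) and 2.87-fold lower (2.55 to 3.25). These 4 genes were lower in both libraries. In the myeloid-rich control cells, Man2b1 was 3.65-fold lower, Lgmn 2.82-fold lower (2.68 to 2.97) and Laptm5 2.57-fold lower (2.37 to 2.78), smaller folds than in the whole class. Atp6v0a2 was 5.10-fold lower (2.84 to 10.25) there, on 11 UMIs. In the myeloid-rich light-damaged cells the 4 genes, in the same order, were 2.65-fold, 1.575-fold, 1.76-fold and 2.88-fold lower.

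Several genes were past 1.5-fold in 1 library. Psap was 2.25-fold lower (2.15 to 2.36) than in control microglia and 1.41-fold higher (1.40 to 1.43) than in light-damaged microglia, on opposite sides of equal levels. Grn was 2.09-fold lower (1.95 to 2.23) and 1.32-fold lower (1.31 to 1.34). Gusb was 1.96-fold lower (1.65 to 2.35) and 1.30-fold higher (1.25 to 1.35), and Lipa 1.18-fold lower (0.975 to 1.45) and 1.88-fold higher (1.78 to 1.98). Cd68 was 1.14-fold lower (1.06 to 1.23) and 1.68-fold higher (1.64 to 1.72). In the myeloid-rich cells Cd68 was higher than in microglia in both libraries, 1.15-fold higher (1.07 to 1.24) and 1.64-fold higher (1.60 to 1.68), and Lipa in the control library stood near equal levels, 1.02-fold higher (0.825 to 1.26). In the myeloid-rich cells 5 of 30 genes were higher and 11 lower in the control library, against 52.4% of all genes (14.6% and 37.8%), and 6 of 30 were higher and 4 lower in the light-damaged library, against 29.0% (11.3% and 17.7%). In the myeloid-rich control cells Psap remained lower than in microglia, 1.85-fold lower (1.76 to 1.94). Grn, 1.62-fold lower (1.51 to 1.74), and Gusb, 1.53-fold lower (1.27 to 1.85), remained lower too. Npc2, 1.38-fold lower (1.30 to 1.46), and Lamp2, 1.43-fold lower (1.28 to 1.61), came inside the limit. Atp6v0e2, 4.67-fold higher (3.66 to 5.91) in the control class, had a log2 ratio of -1.12 in its myeloid-rich cells. Hexa, Glb1, Ppt1, Tpp1, Npc2 and Lamp2 were lower and Neu1 and Atp6v0a1 higher past 1.5-fold in the control library. Atp6v0d1, 1.67-fold higher (1.59 to 1.75), and Atp6v1e1, 1.65-fold higher (1.56 to 1.74), were higher in the light-damaged library. Scaling to the median gene, which moved by -0.18 on the log2 scale in the control library, gave 7 higher and 13 lower, with 58.6% of all genes past 1.5-fold higher in place of 45.0%.

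**Figure D4:**
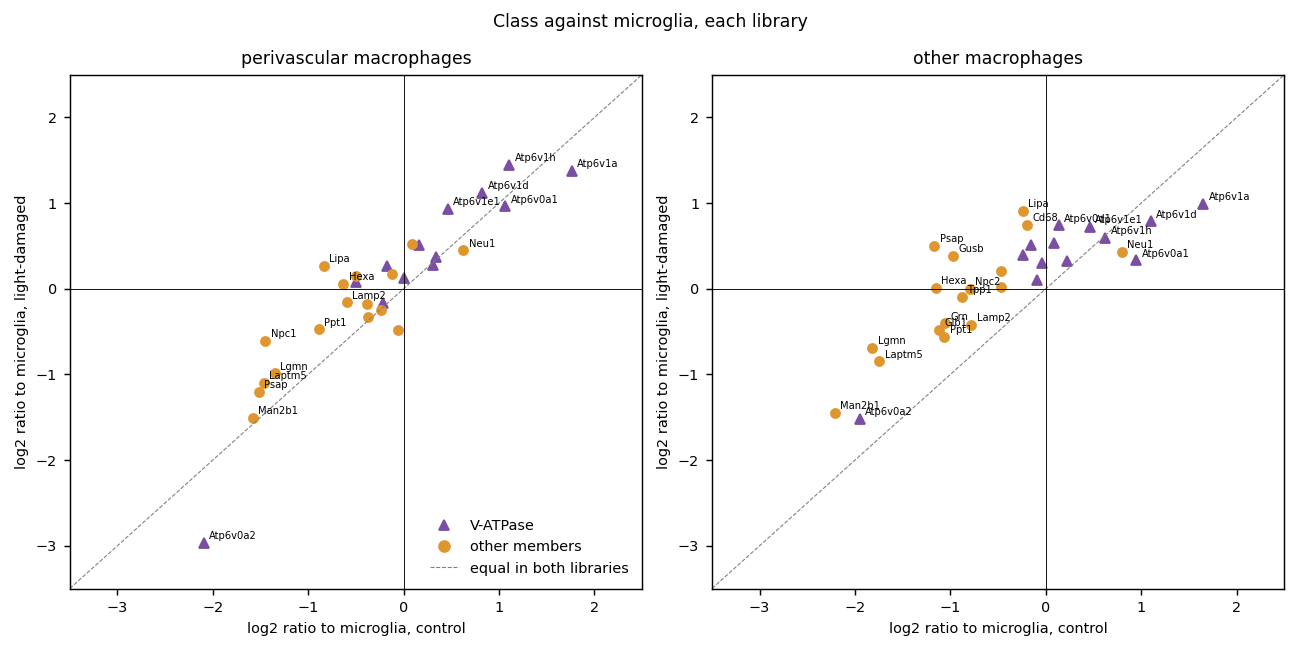
Log2 ratio of each measured gene to microglia in the control library (horizontal axis) and in the light-damaged library (vertical axis), for perivascular macrophages (left) and other macrophages (right); triangles are V-ATPase subunits, circles the other genes, and the dashed line marks equal ratios in both libraries. Atp6v1a, Atp6v1d and Atp6v1h lie in the upper right of both panels and Atp6v0a2 and Man2b1 in the lower left; Psap and Gusb lie to the upper left in the right panel.

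The fixed class limits were then replaced by 4 ranges of the microglia marker sum, among cells with under 10 perivascular marker UMIs per 10000. The lowest range held the same 244 control and 1171 light-damaged cells as the other macrophages, so its values repeat those of that class. The ranges were not limited to myeloid-rich cells, and the lowest control range thus includes the 14436 CPM of rod transcripts. The part of these transcripts in the values was not tested. From the lowest range (0 to 10) over 10 to 20 and 20 to 40 to the highest (40 and more), the hydrolase sum was 2486, 4019, 5784 and 7385 CPM in the control library. In the light-damaged library it was 4964, 5760, 6824 and 7439 CPM. The hydrolase sum thus stood higher with each range in both libraries, and the libraries were close at the top range and apart at the lowest. Not every hydrolase followed the sum. In the light-damaged library Lgmn stood at 2532 and 4316 CPM in the lowest and highest range. Man2b1, Glb1, Tpp1 and Ppt1 were also higher in the highest range. Hexa, Gusb, Neu1 and Lipa were lower there, with Gusb at 326 and 227 CPM and Lipa at 200.3 and 107 CPM. In the control library only Neu1 was lower, at 119 and 62.6 CPM. The V-ATPase sum was 2454, 2485, 2350 and 2163 CPM in the control and 2942, 2655, 2288 and 2141 CPM in the light-damaged library. It was lowest in the top range in both libraries and spanned a narrower range than the hydrolase sum. Psap, Grn and Npc2 together were at 3030, 4542, 5826 and 6280 CPM in the control and 8512, 7395, 7907 and 7671 CPM in the light-damaged library. The luminal sum was higher in the light-damaged library in all 4 ranges. The membrane proteins were at 1752, 2397, 2864 and 3446 CPM and at 2597, 2774, 3041 and 3147 CPM.

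Single genes followed different courses over these ranges. Man2b1 stood at 154 and 732 CPM in the lowest and highest range of the control library and at 388 and 1192 CPM in the light-damaged library. Atp6v1a stood at 195 and 53.6 CPM in the control and at 137 and 60.7 CPM in the light-damaged library, in the reverse order. Atp6v0a2 stood at 14.9 and 60.7 CPM and at 23.9 and 74.9 CPM. Atp6v0a2 thus followed Man2b1 and not its fellow subunit Atp6v1a. Cd68 stood at 859 and 473 CPM in the light-damaged library and at 575 and 654 CPM in the control library. Psap stood at 4582 CPM in the lowest light-damaged range and at 3225 to 3255 CPM in the 3 others. Depth moved with these ranges: the median was 9809 UMIs per cell in the lowest and 6350 in the highest light-damaged range, and 5230 and 4748 in the control library. Its part in these values was not tested.

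**Figure D5:**
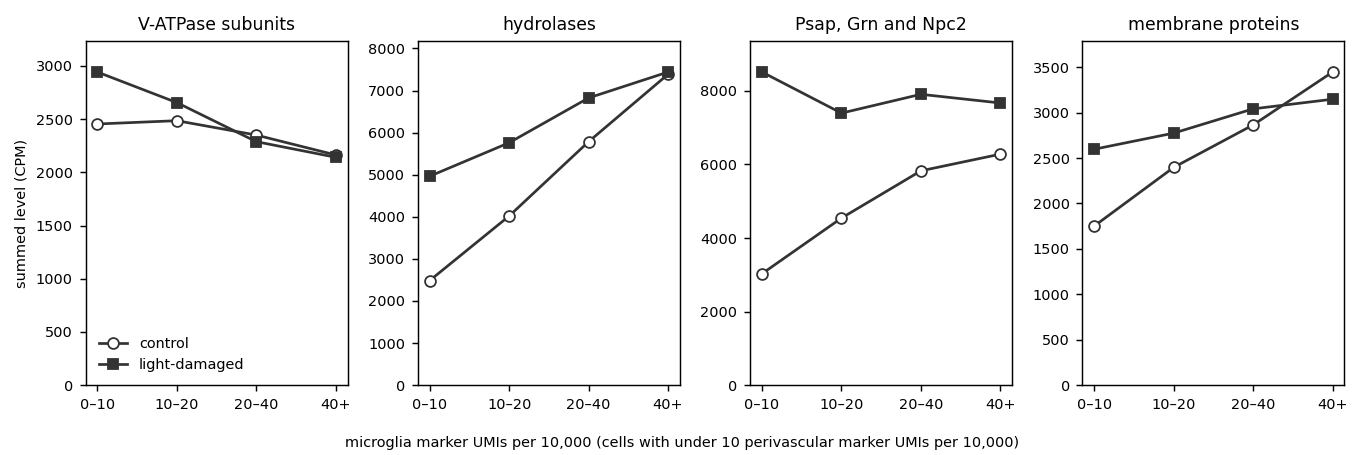
Summed level in CPM of 4 groups of genes (panels, each with its own axis from 0) by range of the microglia marker sum per 10000 UMIs; open circles are the control and filled squares the light-damaged library. The hydrolase sum runs from 2486 to 7385 CPM in the control and from 4964 to 7439 CPM in the light-damaged library, and the sum of Psap, Grn and Npc2 lies between 7395 and 8512 CPM in the light-damaged ranges.

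Levels per cell were computed for 9 of the genes. In light-damaged other macrophages the median of Psap was 35.0 UMIs per 10000, with a 10th percentile of 11.6 and a 90th percentile of 83.8, the widest difference between these percentiles among the 9 genes and 6 sets of cells, though not relative to its level. Cd68 in the same cells ran from 1.78 to 16.2, a wider range relative to its level. In light-damaged microglia the median of Psap was 30.7, between 18.2 and 49.0, and in control other macrophages it was 10.2, between 0 and 28.7. The higher summed level of Psap in light-damaged other macrophages thus came with a median near that of microglia and a longer upper range. The hydrolase sum per cell had a median of 71.8 UMIs per 10000 in control microglia and 70.6 in light-damaged microglia. In perivascular macrophages it was 31.1 and 41.9, and in other macrophages 18.8 and 44.6. The V-ATPase sum had medians between 21.1 and 26.7 in all 6 sets of cells. Thinned to 3000 UMIs per cell, the mean of Psap was 4.42 and 12.7 UMIs in control and light-damaged other macrophages, after 72 control cells had been left out as too shallow.

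Another 51 lysosomal genes that are not among the 41 gave the setting of these results. In microglia 40 were measured, of which 1 was higher and 1 lower past 1.5-fold. Ids, a sulfatase of heparan and dermatan sulfate, was at 19.1 CPM (control) and 31.4 CPM (light-damaged), 1.65-fold higher (1.45 to 1.87). Rragc, a GTPase that recruits the growth regulator mTORC1 to lysosomes, was at 67.5 CPM (control) and 43.2 CPM (light-damaged), 1.56-fold lower (1.44 to 1.69). Their median log2 ratio was -0.03, next to 0.04 for the members measured. In perivascular macrophages 13 of 38 were higher and 2 lower, and in other macrophages 18 of 36 were higher and 3 lower. Over all genes in the same comparisons, 10.4%, 31.7% and 46.6% passed 1.5-fold in either direction. The shares higher were 4.68%, 17.9% and 22.7%, and the shares lower 5.72%, 13.8% and 23.9%. In perivascular and other macrophages the counts higher thus stood above these shares and the counts lower under them. This difference was not tested. Acp5, the acid phosphatase of osteoclasts and macrophages, which like Atp6v0d2 was seen most in light-damaged other macrophages, was at 32.1 CPM (control) and 207 CPM (light-damaged) in that class and was chosen for mention after its value had been seen. Tcirg1, the a3 subunit of the proton pump, whose symbol does not start with Atp6v, was at 102 CPM (control) and 101 CPM (light-damaged) in microglia. In other macrophages it was at 47.8 CPM (control) and 122 CPM (light-damaged), 2.56-fold higher (1.99 to 3.34), and in the myeloid-rich cells it made up 50.5% (40.8% to 60.1%) and 66.8% (64.7% to 68.8%) of a-subunit UMIs. It too was chosen after its values had been seen.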

How the data were processed

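The authors deposited raw UMI counts, whole numbers by gene and barcode, in 1 matrix per library. Cell Ranger 2.0.0 and build mm10 are named, per the submitters' processing notes; the sources used here give no further step. Total counts were 20056338 UMIs over 4003 control barcodes and 58187149 UMIs over 6821 light-damaged barcodes.

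A barcode was kept if it had 300 or more genes and mitochondrial UMIs made up 10% or less of its total. Scrublet in scanpy 1.11.5 marked 0 and 1 barcodes by its automatic threshold, under 0.5%, so the highest scores were removed (0.8% per 1000 barcodes; 128 and 372 barcodes), which left 3820 and 6427 cells. Cells were put into classes by marker sums, and those meeting both limits entered no class. UMIs were summed per library and class and scaled to CPM with numpy 2.4.6 and scipy 1.17.1; values, intervals and shares are descriptions of 2 libraries, and intervals cover counting error only, since UMI counts leave out variation between mice and pools. A gene counted as measured when the mean of both levels was at least 20 CPM and as called when its ratio passed 1.5-fold. The calculation was checked on simulated counts. Genes are named with all 6 levels when they reached 20 CPM in any sum, V-ATPase isoforms at any level, and other lysosomal genes when past 1.5-fold in microglia. Members, lists and limits were chosen with earlier results of these data known. The alternatives tried were no doublet removal, a depth minimum of 3000 UMIs, no cells with rod transcripts, means per cell, median scaling, other class limits, other level minimums and a 2-fold limit. Coordinates are 1-based, from GENCODE's annotation of GRCm38.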

Additional observations from a re-analysis of the deposited data

How the results depend on the processing

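No paired analysis was possible because each group was 1 pooled library. Of 83 ratios of a gene past 1.5-fold, 59 kept their direction and stayed past 1.5-fold under each of the 11 alternatives and the 1 added after seeing the data, where these gave a value. Alternatives that change only the level minimum or the fold limit leave a ratio as it is, so they could not lower this count. Among these ratios only Atp6v0e2 reversed: in the myeloid-rich cells of the other macrophages its log2 ratio was 0.35 (light-damaged against control) and -1.12 (other macrophages against microglia, control). With a 2-fold limit the counts of genes called for light-damaged against control were 0 in place of 4 in microglia, 1 in place of 6 in perivascular macrophages and 9 in place of 17 in other macrophages. With the same limit, perivascular macrophages against microglia gave 9 in place of 15 in the control and 7 in place of 11 in the light-damaged library. Other macrophages against microglia gave 12 in place of 19 and 2 in place of 11. Without a minimum level, the count for light-damaged against control perivascular macrophages was 10, and that for perivascular macrophages against microglia in the light-damaged library was 17. With cells meeting both limits counted in both classes, the count for light-damaged against control perivascular macrophages was 3. Fewer genes can pass a higher fold and more genes are tested without a minimum; the cause of the other change was not tested. Depth limits the perivascular class most, where 53 and 84 cells gave 370976 and 795876 UMIs, so 3 counts were 8.09 and 3.77 CPM.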
